A study of Mus musculus with 2 samples.

Results

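Expression of 36 genes of cholesterol synthesis, uptake, esterification and efflux was described in dissociated mouse brain cells, out of 32285 genes counted. The genes were taken by name from a list, and all 36 were found in the gene tables of both libraries. They were followed across cell types defined by marker genes and between 2 genotypes. Whole brains of mice aged 6 months were dissociated, and each genotype was sequenced as 1 droplet library of 3′ ends of transcripts. Both libraries came from APP-KI mice, an Alzheimer's disease model that carries a knocked-in amyloid precursor protein gene. The Fit2-WT library carries this allele with normal Fit2, and the Fit2-Mut library carries it with Fit2 disrupted, in macrophages by the design text. The labels do not give the driver of the disruption, the part of the gene that was altered or the number of animals behind each library. With 1 library per genotype a difference has no replicate check, so no test between genotypes was made. Intervals in parentheses are exact 95% intervals that cover counting error only.

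Cholesterol does not cross the blood-brain barrier in lipoproteins, so the brain makes its own. Synthesis starts with the mevalonate arm, which builds isoprene units, and goes on through squalene to the sterol steps that end in cholesterol. The SREBP transcription factors, escorted by SCAP and held back by INSIG proteins, set the level of the pathway genes. The liver X receptors respond to oxysterols and raise efflux genes such as Abca1 and Abcg1. Oligodendrocytes need cholesterol for myelin, and astrocytes make it and export it on lipoproteins to other cells.

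The Fit2-WT library gave 5209 cells with a median of 6817 UMIs (unique transcript counts), and the Fit2-Mut library gave 5824 cells with a median of 7376. Cells were kept at 1000 or more UMIs, 500 or more genes and at most 10% mitochondrial UMIs, and called doublets were removed. The libraries shared 9 cell barcodes. Of 37 clusters all but 4 could be named from marker lists, which gave 15 cell types with at least 20 cells in each library, and 7 of these had at least 100. No cluster held enough markers of oligodendrocyte precursors to take that name. Mouse Fit2 is Fitm2, which had 17 UMIs in Fit2-WT microglia-like cells and 1 in Fit2-Mut, a ratio of 0.0467 (0.00112 to 0.298). Levels are given as CPM, the UMIs of a gene over all UMIs of that cell type in that library, scaled to 1e6.

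The promoters of the synthesis genes held the CCAAT box, the binding site of NF-Y, an SREBP partner, more often than promoters at large. RefSeq windows of 250 bases before to 50 after the start (GRCm38.p6) were on hand for 30 of the 36 genes. CCAAT on either strand was found for 15 of 16 synthesis genes with a window, in 78.9% of their 19 windows against 37.4% of all 32851. Among the other genes of the list it was in 10 of 20 windows. The median GC content was 61.3% in the synthesis windows and 52.7% in all. The sterol response element in the form TCACNCCAC, searched on both strands, was found only in Hmgcs1, where it began 137 bases before the start, and in 1.24% of all windows. A match is a description of letters and not a shown binding site. The 180 bases before the start are printed for the 5 synthesis genes with the most UMIs among those that were highest in oligodendrocyte-like or astrocyte-like cells and held a CCAAT box, since these are the genes the levels below turn on. Capitals mark CCAAT or its reverse complement ATTGG, and in Hmgcs1 also the sterol response element. They lie at chr13:119690171-119690350 on the plus strand for Hmgcs1, chr8:64733579-64733758 on the minus strand for Msmo1, chr13:8885426-8885605 on the plus strand for Idi1, chr9:42264301-42264480 on the minus strand for Sc5d and chr5:4104698-4104877 on the minus strand for Cyp51.
Hmgcs1: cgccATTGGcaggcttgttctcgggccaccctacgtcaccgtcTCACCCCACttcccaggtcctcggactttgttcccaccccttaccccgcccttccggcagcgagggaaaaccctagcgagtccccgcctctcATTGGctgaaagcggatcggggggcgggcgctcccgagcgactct
Msmo1: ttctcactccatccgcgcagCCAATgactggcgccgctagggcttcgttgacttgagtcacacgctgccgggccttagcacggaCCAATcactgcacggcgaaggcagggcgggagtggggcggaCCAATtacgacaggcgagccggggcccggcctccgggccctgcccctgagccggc
Idi1: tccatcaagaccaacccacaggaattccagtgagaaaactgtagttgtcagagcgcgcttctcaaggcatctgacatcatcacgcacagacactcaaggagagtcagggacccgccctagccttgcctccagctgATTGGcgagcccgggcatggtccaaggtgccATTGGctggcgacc
Sc5d: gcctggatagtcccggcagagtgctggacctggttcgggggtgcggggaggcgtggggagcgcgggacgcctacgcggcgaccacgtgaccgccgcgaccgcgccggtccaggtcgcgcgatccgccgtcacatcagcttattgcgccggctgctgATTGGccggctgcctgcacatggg
Cyp51: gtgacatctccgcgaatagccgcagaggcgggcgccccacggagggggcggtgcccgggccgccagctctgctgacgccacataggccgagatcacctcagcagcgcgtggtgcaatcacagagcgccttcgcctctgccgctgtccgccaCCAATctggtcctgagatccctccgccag

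Synthesis transcripts were concentrated in oligodendrocyte-like and astrocyte-like cells. The 19 synthesis genes summed to 1576 CPM (1547 to 1605) in Fit2-WT oligodendrocyte-like cells and 1553 (1529 to 1577) in Fit2-Mut. Astrocyte-like cells came next at 1210.5 (1183 to 1238) and 1416 (1390.3 to 1441), and neuroblast-like cells after them at 956 and 947. Neuron-like cells had 521 (426 to 631) and 707 (620.4 to 802). The sum was 569 and 587 in fibroblast-like, 535 and 513 in endothelial-like, 499 and 495 in choroid plexus-like and 469 and 442 in ependymal-like cells. Microglia-like cells, at 344 (329 to 359.9) and 380.3 (366 to 395), stood among the lowest with T cell-like cells at 343 and 389 and monocyte-like cells at 342 and 412. The intervals of these last 3 types overlapped within each library. Lbr alone made up 25.7% and 23.7% of the T cell-like sum, against 2.22% and 3.22% of the microglia-like sum. Without Lbr the sums were 337 and 368 in microglia-like, 289 and 349 in monocyte-like, 255 and 297 in T cell-like and 317 and 284 in NK cell-like cells.

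**Figure D1:**
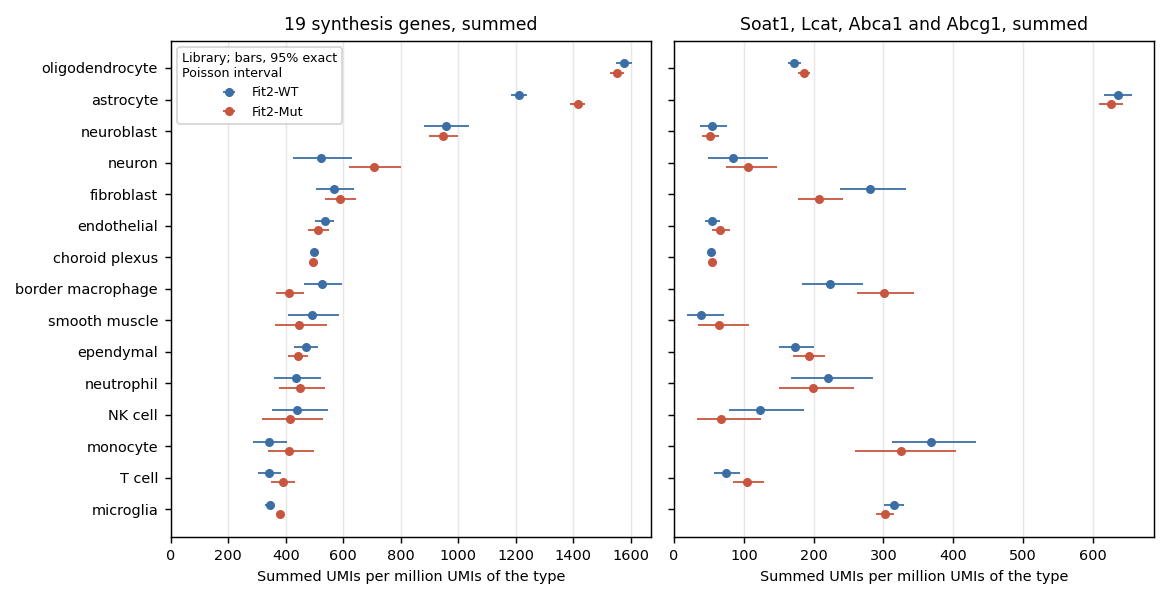
Summed level (CPM) in 15 cell types for the 19 synthesis genes (left) and for Soat1, Lcat, Abca1 and Abcg1 (right), with blue points for Fit2-WT, red points for Fit2-Mut and bars for exact 95% Poisson intervals. Oligodendrocyte-like cells lead the synthesis sum at 1576 and 1553 CPM, and astrocyte-like cells lead the esterification and efflux sum at 636 and 626.

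Of the mevalonate arm, Hmgcs1 (ENSMUSG00000093930, chromosome 13, 119690379 to 119708260 in mm10), the HMG-CoA synthase, was highest in oligodendrocyte-like cells, at 312 CPM (299.6 to 325) and 329.6 (319 to 341). Its next levels were 168 in neuroblast-like cells of Fit2-WT and 171 in astrocyte-like cells of Fit2-Mut, and neutrophil-like cells had 15.2 and 14.0. Idi1, the isopentenyl diphosphate isomerase, stood highest in the same cells at 117 and 115 CPM, above 77.9 and 94.5 in astrocyte-like cells. Fdps, which makes farnesyl diphosphate, had 163 and 142 CPM there, a level that overlapped neuroblast-like cells at 158 and 139. Its exons share 1124 bases with Gm43738, an annotated gene on the same strand, so its count may be incomplete. Acat2, the cytosolic thiolase that starts the pathway, was highest in neuroblast-like cells at 52.1 CPM (35.6 to 73.6) and 61.8 (49.7 to 76.0), against 27.4 and 22.4 in oligodendrocyte-like cells. Mvd, the mevalonate diphosphate decarboxylase, led in astrocyte-like cells at 20.8 and 24.8. Its intervals overlapped those of NK cell-like cells of Fit2-WT (16.1) and neuroblast-like cells of Fit2-Mut (17.2). The kinases between had no stable leader: Mvk was highest in smooth muscle-like cells of Fit2-WT (30.9 CPM from 8 UMIs) and in endothelial-like cells of Fit2-Mut (29.7), and Pmvk in smooth muscle-like cells of Fit2-WT (85.0) and oligodendrocyte-like cells of Fit2-Mut (70.7).

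Of the squalene and sterol steps, Msmo1 (ENSMUSG00000031604, chromosome 8, 64718139 to 64733792), the sterol methyl oxidase, stood furthest apart in astrocyte-like cells, at 344 CPM (329.5 to 359) and 430.5 (417 to 445). Oligodendrocyte-like cells had 210.4 and 187, and no other type passed 73.3 in Fit2-WT or 85.4 in Fit2-Mut. Astrocyte-like cells also led in both libraries for Nsdhl, the sterol dehydrogenase of the demethylation steps (44.5 and 49.7), Hsd17b7, the ketoreductase of the same steps (19.8 and 26.0), and Dhcr7, the last reductase of the pathway (37.7 and 39.7). In Fit2-WT the intervals of Hsd17b7 and Dhcr7 overlapped those of oligodendrocyte-like cells, at 18.7 and 30.8. Nsdhl overlapped fibroblast-like cells of Fit2-WT (23.8) and neuron-like cells of Fit2-Mut (23.6). Cyp51, the lanosterol demethylase, and Sc5d, the lathosterol desaturase, were instead highest in oligodendrocyte-like cells, with 129 and 135 CPM and with 145 and 148. Squalene handling was spread more widely. Fdft1, the squalene synthase, had its highest level in neuroblast-like cells of Fit2-WT (101) and astrocyte-like cells of Fit2-Mut (99.9). Sqle, the squalene epoxidase, was highest in ependymal-like cells at 97.2 (79.8 to 117) and 89.5 (74.8 to 106), the second of which overlapped 81.4 in astrocyte-like cells. Lss, the lanosterol synthase, reached 19.8 from 4 UMIs in neuron-like cells of Fit2-WT and 17.9 in ependymal-like cells of Fit2-Mut. Ebp, the sterol isomerase, had overlapping levels in NK cell-like cells (107 and 122) and oligodendrocyte-like cells (96.3 and 94.4).

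Lbr and Tm7sf2, which both encode a sterol C14 reductase, had their highest well-counted levels in different cells. Lbr (ENSMUSG00000004880, chromosome 1, 181815335 to 181843046), also the lamin B receptor of the nuclear envelope, was highest in neutrophil-like cells at 259 CPM (201 to 328) and 262 (206 to 328). NK cell-like cells followed at 124 and 129, T cell-like cells at 88.0 and 92.4 and endothelial-like cells at 86.9 and 79.5, while choroid plexus-like cells had 4.17 and 4.10. In neutrophil-like cells Lbr alone made up 59.6% and 58.1% of the synthesis sum, and without it the sum fell to 175 and 189 CPM. Tm7sf2 was at 12.2 CPM (9.57 to 15.3) and 13.9 (11.5 to 16.7) in astrocyte-like cells, where Lbr had 11.5 (8.99 to 14.6) and 10.8 (8.73 to 13.3). Neutrophil-like cells had 0 UMIs of Tm7sf2, with upper bounds of 14.1 and 12.9 CPM that reach the astrocyte-like level. The 5 UMIs of Fit2-Mut neuron-like cells gave it a slightly higher 14.7 (4.78 to 34.4). Tm7sf2 shares 532 exon bases with Vps51 on the same strand, so its level is uncertain.

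Sterol sensing was led by astrocyte-like cells. The 5 sensing genes summed to 445 and 448 CPM there, against 332 and 300.2 in ependymal-like and 304 and 288 in oligodendrocyte-like cells. Srebf2 (ENSMUSG00000022463, chromosome 15, 82147181 to 82205379), the SREBP that drives cholesterol genes, had 112 CPM (103 to 120.3) and 113 (106 to 120.0) in astrocyte-like cells. The Fit2-WT interval overlapped that of neuron-like cells, at 84.4 with an upper bound of 135. In Fit2-Mut the next level was 80.9 in oligodendrocyte-like cells, with an upper bound of 86.6. Srebf1, whose products drive fatty acid genes more than sterol genes, had 164 (141 to 189) and 156 (137 to 178) in ependymal-like cells, with intervals that overlapped those of astrocyte-like cells at 147 (138 to 157) and 139 (132 to 148). Scap, the escort, did not separate astrocyte-like (35.3 and 36.2) from oligodendrocyte-like cells (35.1 and 36.5). Of the retention proteins, Insig1 was highest in astrocyte-like cells at 106 and 115, and Insig2 in fibroblast-like cells of Fit2-WT (97.1) and smooth muscle-like cells of Fit2-Mut (86.4). The Insig1 intervals overlapped those of oligodendrocyte-like cells of Fit2-WT (102) and neuron-like cells of Fit2-Mut (109).

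Of the 4 uptake and intracellular transport genes, Npc2 and Mylip were highest in microglia-like cells and Npc1 and Stard4 in other types. Npc2 (ENSMUSG00000021242, chromosome 12, 84754562 to 84773152), the lysosomal carrier that hands free cholesterol to NPC1, had 1925 CPM (1889 to 1961) and 1816 (1785 to 1847) in microglia-like cells. Border-associated macrophage-like cells had 973 and 1519 and monocyte-like cells 667 and 616, whereas neuron-like cells had 44.7 and 58.9. After each cell was thinned to 1000 UMIs, the share of microglia-like cells with a UMI of Npc2 was 79.1% and 77.8%, against 10.4% and 11.9% of astrocyte-like cells, with unthinned shares of 99.3% and 98.8% and of 36.3% and 42.9%. Npc1, the membrane partner of NPC2, was highest elsewhere, in oligodendrocyte-like cells at 198 and 192 CPM, with 56.7 and 64.3 in microglia-like cells. Mylip, the ubiquitin ligase that degrades the LDL receptor, had 222 (210.0 to 234) and 224 (213 to 235) in microglia-like cells. The next levels of Mylip were 96.7 in NK cell-like cells of Fit2-WT and 147 in border-associated macrophage-like cells of Fit2-Mut. Stard4, a cytosolic sterol carrier, was highest in endothelial-like cells at 67.7 (56.4 to 80.6) and 71.8 (59.0 to 86.4), and no other type passed 22.7. Its thinned share of endothelial-like cells was 4.86% and 8.24%, against 0.139% and 0.402% of choroid plexus-like cells, with 24.8% and 25.6% against 3.4% and 2.34% before thinning.

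**Figure D2:**
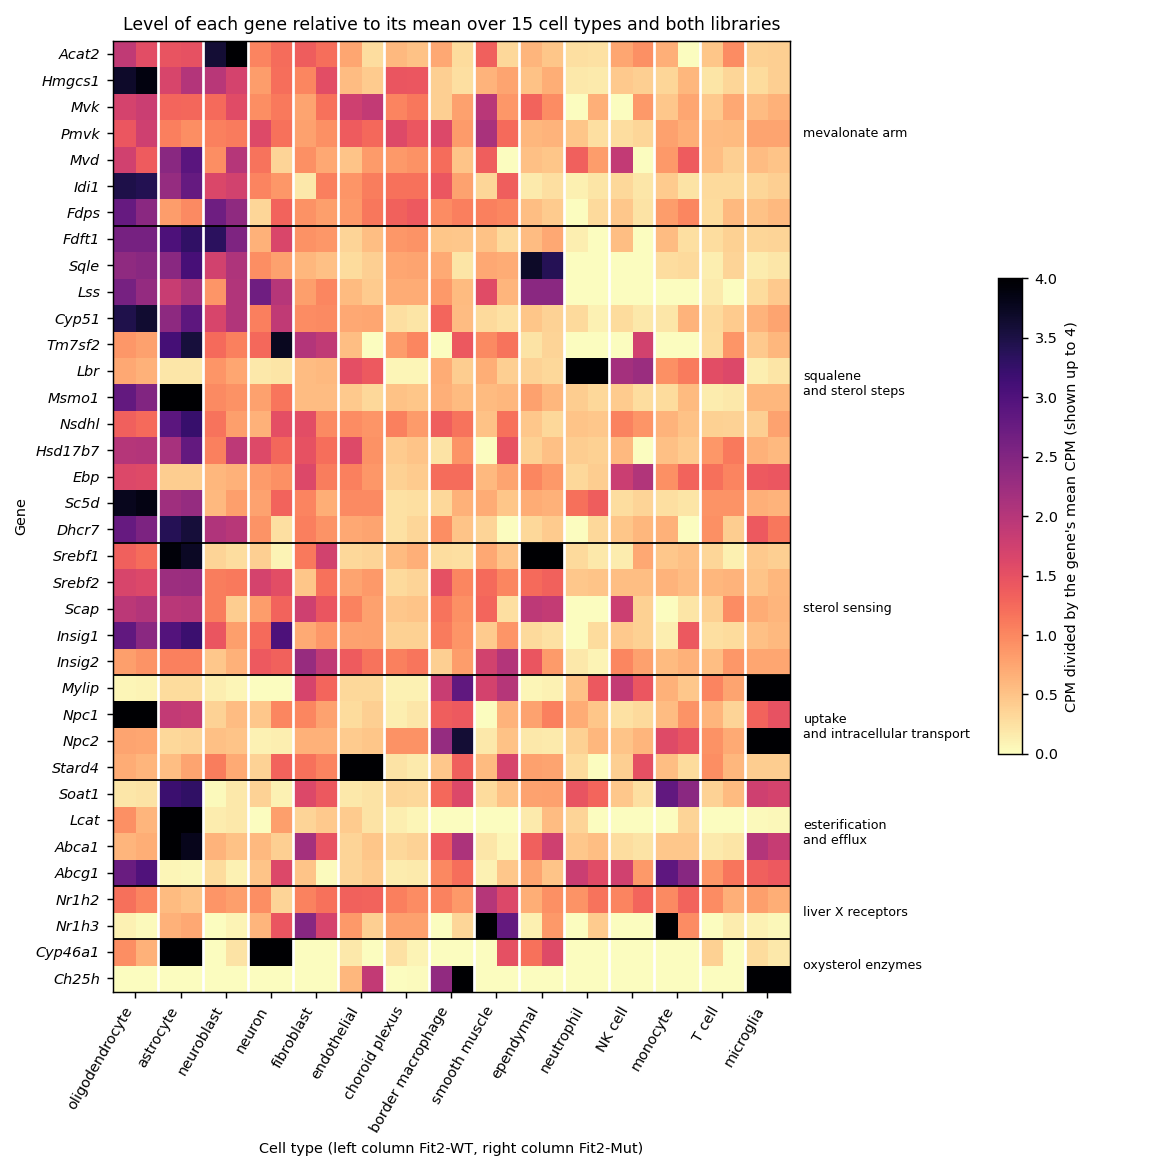
Level of each of the 36 genes in 15 cell types, as CPM divided by the gene's mean over all types and both libraries, with Fit2-WT in the left and Fit2-Mut in the right column of each type and role groups named at the right. The scale stops at 4, and among the darkest cells are Msmo1 and Lcat in astrocyte-like, Npc1 and Hmgcs1 in oligodendrocyte-like, Lbr in neutrophil-like, Stard4 in endothelial-like and Npc2, Mylip and Ch25h in microglia-like cells.

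Esterification and efflux were led by astrocyte-like cells, and the 2 ABC exporters fell in different glia. Soat1 (ENSMUSG00000026600, chromosome 1, 156424525 to 156474331), which esterifies cholesterol inside cells, had 258 CPM (246 to 271) and 266 (255 to 278) in astrocyte-like cells, overlapping 228 and 196 in monocyte-like cells. Lcat, which esterifies cholesterol on lipoproteins, had 131 (122 to 141) and 135 (128 to 144) in astrocyte-like cells, and no other type passed 10.2. Its thinned share was 8.16% and 9.74% of astrocyte-like cells against 0% and 0.347% of microglia-like cells, and the unthinned shares were 29.6% and 36.5% against 0.364% and 0.868%. Abca1, the exporter that loads lipid onto apolipoproteins, had 243 and 222 CPM in astrocyte-like cells and 36.0 and 40.3 in oligodendrocyte-like cells. Abcg1, which passes cholesterol to formed particles, ran the other way, with 2.80 (1.63 to 4.48) and 2.03 (1.18 to 3.24) in astrocyte-like and 110.1 (103 to 118) and 119.9 (113 to 127) in oligodendrocyte-like cells. Monocyte-like cells had Abcg1 levels that overlapped the latter, 114 and 98.1.

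The nuclear receptors and oxysterol enzymes split between common and rare transcripts. Nr1h2 (ENSMUSG00000060601, chromosome 7, 44549616 to 44553951), encoding LXR beta, had UMIs in all 15 types, from 14.7 CPM in neuron-like cells of Fit2-Mut to 85.0 in smooth muscle-like cells of Fit2-WT. Barcodes of 10 to 100 UMIs, taken as free RNA, held Nr1h2 at 32.0 and 41.0 CPM. The amount of free RNA in each cell was not measured, and its part in the lower of these levels was not tested. Nr1h3, encoding LXR alpha, was highest in the same smooth muscle-like cells, at 61.8 (35.3 to 100.3) and 22.7 (7.38 to 53.1), on 16 and 5 UMIs. These intervals overlapped 48.5 (29.6 to 74.9) in Fit2-WT monocyte-like and 13.7 (6.84 to 24.5) in Fit2-Mut fibroblast-like cells, and the smooth muscle-like cluster also held 8 of 8 pericyte markers. Microglia-like cells had 5 and 3 UMIs of Nr1h3. Cyp46a1, the 24-hydroxylase known from neurons, had 4 and 7 UMIs in the few neuron-like cells (19.8 and 20.6 CPM) and 86 and 115 in astrocyte-like cells (14.2 and 13.7), with overlapping intervals. Ch25h (ENSMUSG00000050370, chromosome 19, 34473778 to 34475164), which makes 25-hydroxycholesterol, had 41.1 (36.0 to 46.7) and 51.2 (46.1 to 56.7) CPM in microglia-like cells. It reached 10.5 and 19.4 in border-associated macrophage-like and 2.67 and 8.41 in endothelial-like cells, and astrocyte-like, oligodendrocyte-like and T cell-like cells had no UMI. Its thinned share of microglia-like cells was 3.27% (1.95 to 5.12) and 3.12% (1.86 to 4.89), against 0% of astrocyte-like cells (exact upper bounds of 0.307% and 0.253%). The unthinned microglial shares were 20.7% and 24.7%.

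Over the whole list, 28 of 36 genes had the same highest type in both libraries, 10 of them astrocyte-like and 6 oligodendrocyte-like. For 14 of the 28 the whole interval of the highest level lay above the interval of the next type in both libraries. The 14 were 5 genes in oligodendrocyte-like, 3 in astrocyte-like and 3 in microglia-like cells, and 1 each in endothelial-like, neuroblast-like and neutrophil-like cells. In the GENCODE vM21 annotation 5 of the 36 genes share exon bases with a gene on the same strand and 10 with a gene on the opposite strand.

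Clusters within a type differed in several of these genes. The 36 genes had been left out of the genes used for clustering. Among microglia-like cells, cluster 4, led by Spp1, Itgax and Lpl, held Ch25h at 53.6 CPM (46.8 to 61.1) and 61.9 (55.3 to 69.0). Cluster 18, led by Tmem119 and P2ry12, held 0 UMIs of it in Fit2-WT (upper bound 5.05 CPM) and 3 UMIs in Fit2-Mut, or 3.46 CPM (0.714 to 10.1). Mylip ran against this, with 231 and 221 in cluster 4 and 369.9 and 374 in cluster 18, and Abca1 stood at 123 and 113 against 182 and 167. Npc2 was higher in cluster 4, at 1977 and 1909 against 1022 and 951. Cluster 15 had a median of 3966.5 UMIs per cell, against 13989 in cluster 4 and 6832 in cluster 18, and its cells held Npc2 at 2514 and 2521 and Mylip at 54.1 and 49.1.

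In oligodendrocyte-like cells the synthesis sum was highest in cluster 12, led by Klk6, at 2111 (2055 to 2168) and 2164 (2117 to 2212), and stood at 1629 and 1352 in cluster 14. Cluster 10 had 1273 and 1171 and cluster 7 had 1108 and 1154, with overlapping intervals in Fit2-Mut. Hmgcs1 had 474 and 532 in cluster 12, against 193 and 221 in cluster 7 and 222 and 198 in cluster 10. In astrocyte-like cells the sum ran from 495 and 457 in cluster 9 to 1862 and 2094 in cluster 6, led by Crym and Lhx2. Clusters 8, 9 and 11 had 0.355%, 0.342% and 0.538% of their UMIs in ribosomal protein genes, against 1.36% in cluster 5 and 2.19% in cluster 6, and their part in the lower synthesis sums was not tested. Abca1 ran the other way, with 188 CPM in cluster 6 and 295 in cluster 9 of Fit2-WT.

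**Figure D3:**
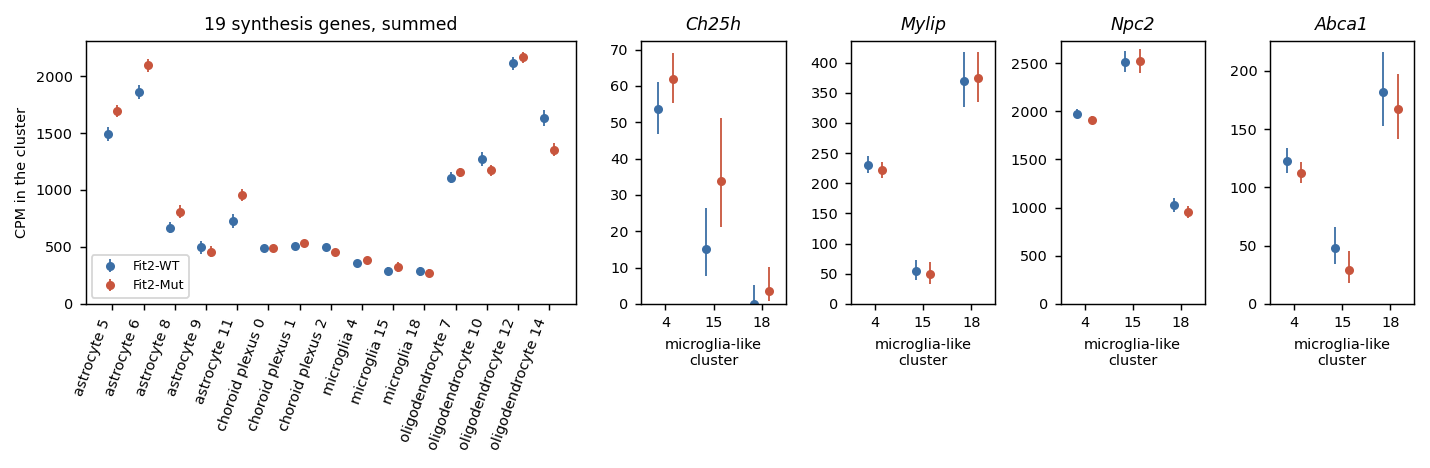
CPM by cluster number, with blue for Fit2-WT, red for Fit2-Mut and bars for exact 95% Poisson intervals. The left panel sums the 19 synthesis genes in clusters of 4 types, where oligodendrocyte-like cluster 12 reaches 2111 and 2164 CPM, and the other panels give 4 genes in microglia-like clusters, where Ch25h is at 53.6 and 61.9 in cluster 4 against 0 and 3.46 in cluster 18.

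Between the genotypes, most genes of the list stayed within 1.5-fold. In the 7 types with at least 100 cells in each library, 207 pairs of a gene and a type had 20 or more UMIs in both libraries together. Of these, 9 were at least 1.5-fold higher and 7 at least 1.5-fold lower in Fit2-Mut, or 7.73%, against 10.5% of all gene and type pairs tested. There were 252 pairs in all, and 16 of the 36 genes were tested in every type. Ratios are Fit2-Mut over Fit2-WT of CPM.

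Astrocyte-like cells showed a small shift of synthesis in 1 direction. No gene of the 35 tested was past 1.5-fold, where 4.26% of all genes were higher and 3.06% lower. The synthesis sum was higher in Fit2-Mut by a ratio of 1.17 (1.14 to 1.20), with 15 of 19 genes above 1 against 51.3% of all genes. Msmo1 had 344 and 430.5 CPM, a ratio of 1.25 (1.19 to 1.32). Hmgcs1 had 142 and 171 CPM, a ratio of 1.21 (1.11 to 1.32). The intervals of Idi1, Fdps, Sqle, Cyp51 and Hsd17b7 also lay above 1, at ratios of 1.20 to 1.31. The interval lay above 1 for these 7 of 19 synthesis genes and for 6.66% of all genes tested, and intervals are narrower for genes with more UMIs. The median log2 ratio was 0.19 for synthesis and 0.01 for all genes. Sensing genes did not share the shift, with a summed ratio of 1.01 (0.956 to 1.06), and Srebf2 had 1.01 (0.914 to 1.12). Soat1 was at 1.03 (0.966 to 1.10), and Abca1 was slightly lower at 0.913 (0.853 to 0.979).

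The astrocyte-like shift was seen in 4 of the 5 clusters with at least 50 cells in each library. The synthesis ratio was 1.14 (1.08 to 1.20) in cluster 5, 1.12 (1.08 to 1.18) in cluster 6, 1.22 (1.10 to 1.35) in cluster 8 and 1.31 (1.19 to 1.45) in cluster 11. Cluster 9 had 0.923 (0.786 to 1.08). Cluster 5, with a high synthesis sum, made up 20.1% of Fit2-WT and 27.2% of Fit2-Mut astrocyte-like cells, and cluster 8, with a low sum, 23.0% and 15.4%. The median depth was 4381 and 5131 UMIs per cell, and after thinning to 1000 UMIs the ratio was 1.17. Summed choroid plexus markers stood at 2284 and 2515 CPM and oligodendrocyte markers at 283 and 282 in these cells, and their part in the result was not tested.

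**Figure D4:**
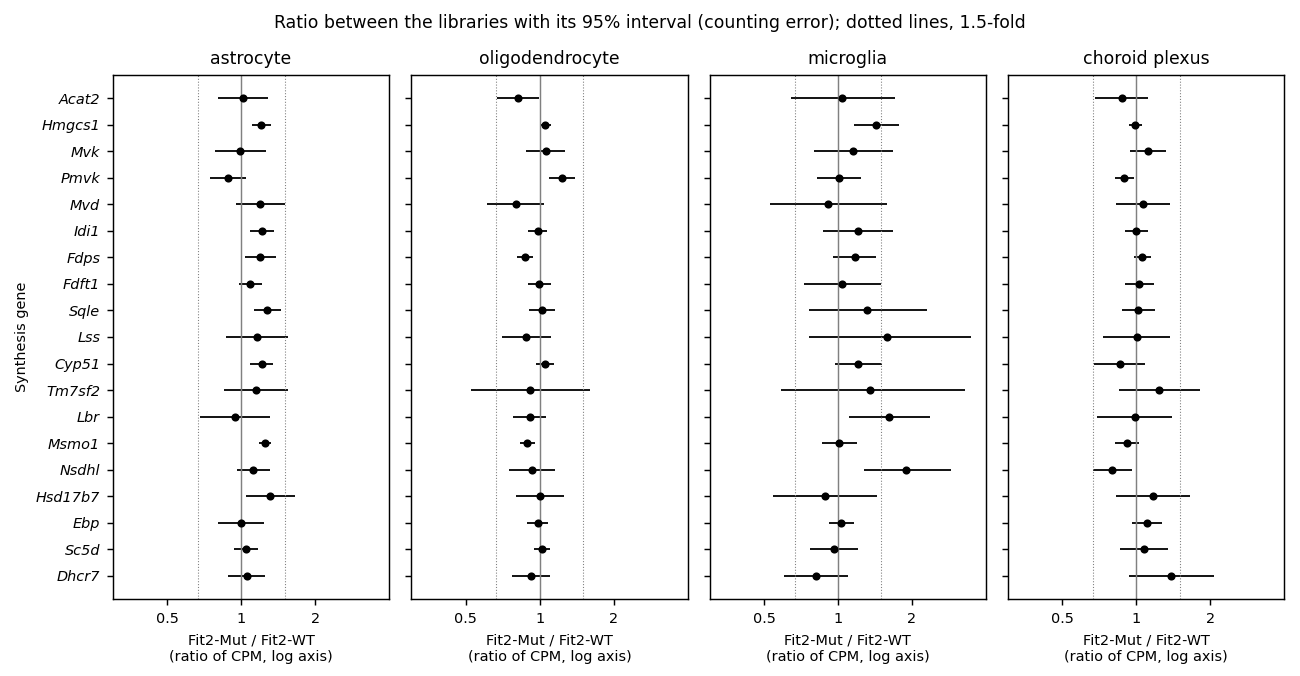
Ratio of CPM, Fit2-Mut over Fit2-WT, of each synthesis gene in 4 cell types on a log axis, with bars for exact 95% intervals from counting error, for genes with at least 20 UMIs. In astrocyte-like cells 15 of 19 points lie above 1 and none passes the dotted 1.5-fold lines, while in microglia-like cells Lss, Lbr and Nsdhl pass the upper line.

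In oligodendrocyte-like cells the synthesis sum differed by a ratio of 0.986 (0.962 to 1.01). Of 34 genes tested, 0 were at least 1.5-fold higher and 1 lower, where 5.18% and 3.08% of all genes were. The lower gene was Lcat (ENSMUSG00000035237, chromosome 8, 105939551 to 105943382), with 10.2 and 6.81 CPM on 75 and 70 UMIs, a ratio of 0.665 (0.473 to 0.934). In thinned cells, which hold fewer UMIs, its ratio turned to 1.27, with no interval computed. The interval lay below 1 for 6 of the 34 genes and above 1 for 2, against 6.12% and 7.04% of all genes. Beside Lcat, Msmo1 was lower at 0.891 (0.833 to 0.953), Fdps at 0.870 (0.806 to 0.940) and Insig1 at 0.855 (0.775 to 0.944). Acat2, with 27.4 and 22.4 CPM, and Nr1h2, at a ratio of 0.862, were the other lower genes. Pmvk, the phosphomevalonate kinase, was higher at 1.24 (1.10 to 1.40). Hmgcs1 had 312 and 329.6 CPM, a ratio of 1.06 (1.0 to 1.11). Clusters went separate ways, from a synthesis ratio of 0.830 (0.782 to 0.881) in cluster 14 to 1.04 (0.987 to 1.10) in cluster 7. Summed choroid plexus markers were at 842 and 2941 CPM here, with 9 of 9 higher in Fit2-Mut, and their part in the result was not tested.

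In microglia-like cells, the macrophages of the brain tissue, 3 of 33 genes were at least 1.5-fold higher and 0 lower, against 8.21% and 3.61% of all genes. Nsdhl (ENSMUSG00000031349, chromosome X, 72918557 to 72958514) had 6.24 and 11.8 CPM on 36 and 86 UMIs, a ratio of 1.90 (1.27 to 2.88). Lbr had 7.63 and 12.2 CPM on 44 and 89 UMIs, a ratio of 1.61 (1.11 to 2.36). Lbr fell to 1.24 without cluster 35, a group of 4 and 19 cells led by Birc5 and Mki67. It turned to 0.955 in thinned cells, on fewer UMIs and with no interval computed. Nsdhl was at 1.90 without that cluster and between 1.68 and 2.06 under the alternatives tried. Lss, on 12 and 24 UMIs, had an interval that held 1. Hmgcs1 was at 23.9 and 34.3 CPM, a ratio of 1.43 (1.16 to 1.78), which reached 1.57 (1.23 to 2.02) in cluster 4.

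The microglial synthesis sum was at a ratio of 1.10 (1.04 to 1.17), with 15 of 19 genes above 1 against 62.9% of all genes, and a median log2 ratio of 0.20 against 0.07 for all genes. In thinned cells, which hold fewer UMIs and were given no intervals, the ratio was 0.993. Npc2 had 1925 and 1816 CPM, a ratio of 0.943 (0.920 to 0.968), and Ch25h was at 1.25 (1.06 to 1.47), which turned to 0.955 in thinned cells. The intervals of Soat1 at 0.969 (0.883 to 1.06), Nr1h2 at 0.850 (0.696 to 1.04) and Srebf2 at 1.24 (0.999 to 1.55) held 1. The median depth was 9690.0 and 11295.5 UMIs per cell. Summed choroid plexus markers were at 5649 and 3061 CPM, with 0 of 9 higher in Fit2-Mut, and their part in the results was not tested.

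In choroid plexus-like, endothelial-like and ependymal-like cells the shares past 1.5-fold were near or below those of all genes, and in T cell-like cells the share that was higher was above it. In choroid plexus-like cells, the deepest type in total UMIs, the synthesis ratio was 0.992 (0.962 to 1.02), and 0 of 34 genes were at least 1.5-fold higher and 1 lower, against 3.14% and 2.92% of all genes. The interval lay above 1 for 1 gene and below 1 for 3, against 5.30% and 8.24% of all genes. The higher gene was Npc1 at 1.49, and between 1.35 and 4.04 under the alternatives tried. The lower genes were Nsdhl at 0.797, Pmvk at 0.893 and Nr1h2 at 0.894. In endothelial-like cells the counts were 1 higher and 2 lower of 29, against 5.37% and 5.84%. Summed erythrocyte markers were at 7457 and 33432 CPM in endothelial-like cells, with 5 of 5 higher in Fit2-Mut, and their part was not tested. In ependymal-like cells 0 were higher and 2 lower of 25, against 7.77% and 7.20%. One of the latter was Insig2 (ENSMUSG00000003721, chromosome 1, 121304353 to 121332589), with 61.5 and 35.8 CPM on 69 and 52 UMIs, a ratio of 0.582 (0.398 to 0.847), which was 0.893 when cells from 500 UMIs and 250 genes were kept. Choroid plexus markers summed to 7576 and 3016 CPM in these cells, and their part was not tested. In T cell-like cells 5 were higher and 1 lower of 17, against 10.2% and 7.81%, and only Fdps among the 6 had an interval that left out 1, at 2.0 (1.04 to 3.99) on 15 and 30 UMIs. The summed uptake and transport genes were lower there, at a ratio of 0.755 (0.650 to 0.877). Summed erythrocyte markers were at 24.3 and 25153 CPM in T cell-like cells, with 5 of 5 higher in Fit2-Mut, and their part in these results was not tested.

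Of 28 further pathway genes, 20 to 27 were tested in the 5 types other than T cell-like (14) and ependymal-like (19). Abca2, a lysosomal ABC transporter, had 8.15 and 12.5 CPM in microglia-like cells, a ratio of 1.54 (1.07 to 2.23), the only gene of the 22 tested past 1.5-fold there. Apoe, the main lipid carrier of the brain, had 124 and 289.9 CPM in T cell-like cells, a ratio of 2.34 (1.86 to 2.96). In microglia-like cells, chosen here after its values were seen, Apoe was lower, at 22743 and 17819 CPM, a ratio of 0.783 (0.777 to 0.790). T cell-like cells also held summed microglia markers at 274 and 382 CPM and astrocyte markers at 71.8 and 122, beside the erythrocyte markers given above, and their part was not tested. Of the further genes 1 was higher and 3 were lower of 20 in endothelial-like cells, against 5.37% and 5.84% of all genes. In T cell-like cells 2 were higher and 3 lower of 14, against 10.2% and 7.81%. In oligodendrocyte-like cells 1 of 25 and in ependymal-like cells 1 of 19 were higher and 0 lower, against 5.18% and 7.77% of all genes higher. In microglia-like cells 0 were lower, and in astrocyte-like and choroid plexus-like cells none of the 27 and 26 tested passed 1.5-fold either way.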

How the data were processed

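Per the labels' protocols, whole brains were dissociated with an adult brain kit and made into 10x 3′ libraries. The deposited files hold UMI counts per gene and barcode, which the authors made with Cell Ranger on mm10. The file headers name version 7.1.0 and the submitters' processing notes 7.0.0. Which annotation was used, and whether intronic reads were counted, is not given in the sources used here. All listed barcodes were deposited, so cells were called here as stated in the report (52491901 and 63234140 UMIs in all barcodes). Doublets were called with Scrublet in scanpy 1.11.5 (124 and 155 cells). Cells were clustered by the Leiden method (2000 variable genes without the 36 genes and 28 further pathway genes, 30 components, 15 neighbours, resolution 1.5) and named from 21 marker lists. The resolution and naming rule were revised after the clusters, but not the levels of these genes, were seen. A cluster was named from a list when at least 3 markers and at least 0.5 of the list were 2-fold above other cells and in 10% of its cells. Counts were summed per type and library. Intervals are exact Poisson for levels, exact conditional binomial for ratios and Clopper-Pearson for shares. Genes needed 20 UMIs in both libraries together for a ratio, except Fitm2, whose ratio in microglia-like cells rests on 17 and 1 UMIs. Genotype values are given in full for genes past 1.5-fold with an interval leaving out 1 and 50 UMIs or more. For the most abundant gene of each role group they are given in some of the 7 types only. The functions were tested on simulated data. The genes and lists were chosen with earlier results of these data known. Alternatives covered cell filters, doublets, typing, weighting, thinning, scaling (TMM in edgeR 4.0.16 and median of ratios), free RNA subtracted at 5%, UMI minimums and the fold.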

Additional observations from a re-analysis of the deposited data

Results flagged for a closer look

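For 5 genes the interval of the ratio between genotypes left out 1 in opposite directions in different cell types. The differences between types were not tested, and for 3 of the 5 the opposite directions were lost in thinned cells. Thinned ratios rest on fewer UMIs and were given no intervals. Msmo1 had a ratio of 1.25 in astrocyte-like and 0.891 in oligodendrocyte-like cells, the latter 1.02 in cells thinned to 1000 UMIs. Fdps stood at 1.20 in astrocyte-like and 2.0 in T cell-like cells against 0.870 in oligodendrocyte-like cells. Abca1 was at 1.32 in ependymal-like and 0.913 in astrocyte-like cells, the former 0.794 in thinned cells. Nsdhl had 1.90 in microglia-like and 0.797 in choroid plexus-like cells, and Pmvk 1.24 in oligodendrocyte-like and 0.893 in choroid plexus-like cells, the latter 1.03 in thinned cells.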

How the results depend on the processing

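No paired analysis was possible because each genotype has 1 library. The members' median log2 ratio was set against a range from the median of the single genes' lower bounds to that of their upper bounds. It stayed within that range in each of the 7 types under all 92 recomputations. The range is that of a single gene, wider than the error of a median, so staying within it says little. In T cell-like cells the range was -0.781 to 1.06, and the median ran from -0.230 to 0.280. The median crossed 0 in every type but astrocyte-like, where it ran from 0.0291 to 0.144. The synthesis ratio had its own recomputations, and it stayed within its interval in 74, moved out of it in 4 and turned to the other side of 1 in 1. In thinned cells it was 0.993 in microglia-like and 0.794 in ependymal-like cells. In astrocyte-like cells it was 1.21 at 5% mitochondrial UMIs and 1.11 without the clusters under 1% ribosomal UMIs, a setting added after seeing the data, and in oligodendrocyte-like cells 1.02 with types set by marker share per cell. The cause was not tested. The number of pairs of gene and type tested changed with the setting. The 16 of 207 past 1.5-fold became 26 of 129 in thinned cells and 4 of 149 with at least 100 UMIs. They became 38 of 242 with at least 1 UMI in each library, 2 of 207 at 2-fold, and 15 to 24 of 203 to 217 otherwise. The share of all genes was not computed under these settings. Among ratios whose interval left out 1, those that turned, all in thinned cells, were Lbr (0.955) and Ch25h (0.955) in microglia-like, Pmvk (1.03) in choroid plexus-like, Acat2 (1.06), Msmo1 (1.02) and Lcat (1.27) in oligodendrocyte-like and Abca1 (0.794) in ependymal-like cells. Ratios whose interval held 1 also crossed 1, such as Nr1h2 in microglia-like cells, at up to 1.47. From 26 to 29 genes had the same highest type in both libraries under the 4 alternatives to 28. Clusters at resolution 1 and the type without cluster 35 were also added after seeing the data. TMM lowered all microglial log2 ratios by 0.07. Intervals cover counting error only, and types under 100 cells gave levels but no ratios.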
